A study of Danio rerio with 24 samples.

Results

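The genes described here encode the mitochondrial respiratory chain of zebrafish retinal pigment epithelium (RPE): complexes I to V, their named assembly factors, cytochrome c and the inhibitors of ATP synthase. They were chosen by gene symbol alone (mt-nd, mt-co, mt-cyb and mt-atp for genes of the mitochondrial genome, and nduf, sdh, uqcr, cox with a number, cycs and atp5 for genes of the nucleus). The rule matched 126 of 25281 annotated genes, of which 13 were mitochondrial and 113 nuclear. The 13 mitochondrial genes lie on chromosome MT (GRCz11) between *mt-nd1*, at position 3803 to 4777, and *mt-cyb*, at position 15308 to 16448. They encode 7 subunits of complex I, 1 of complex III, 3 of complex IV and 2 of complex V. The nuclear genes comprised 48 of complex I (7 of them assembly factors), 9 of complex II (4 assembly factors), 8 of complex III, 2 for cytochrome c, 27 of complex IV (9 assembly factors) and 19 of complex V (2 of them inhibitors). The genes *ndufa4*, *ndufa4l* and *ndufa4l2b* are counted here with complex I by their names, although in mammals the NDUFA4 protein belongs to complex IV.

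RNA was measured in RPE cells of larvae that carried the *rpe65a*:nfsB-eGFP transgene, in which the RPE promoter of *rpe65a* drives a bacterial nitroreductase fused to eGFP. The drug metronidazole (MTZ, 10 mM for 24 h from 5 dpf) is turned into a toxin by that enzyme and removes RPE cells, after which the tissue regenerates, and rapamycin, an inhibitor of the kinase complex mTORC1, was used to ask what mTOR does in that process. The 8 groups of 3 libraries each were MTZ+ rapamycin, MTZ+ DMSO, MTZ- rapamycin and MTZ- DMSO larvae at 2 days post injury (2dpi, 7 dpf), and the same 4 groups at 4dpi (9 dpf). All were offspring of transgenic fish crossed to the AB strain, and all received 2 µM rapamycin or its solvent DMSO starting 24 h before the time of MTZ treatment. All embryos were also kept in 1-phenyl-2-thiourea (PTU), which blocks pigmentation, between 6 h and 5 days after fertilization. Each library came from at most 1000 sorted eGFP-positive cells of about 80 eyes pooled from about 40 larvae, so individual larvae were not resolved, and the sorted cells of MTZ+ eyes include RPE cells that escaped ablation as well as regenerated ones.

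The respiratory chain passes electrons from NADH (complex I) and succinate (complex II) through complex III and the small carrier cytochrome c to oxygen at complex IV, and complex V uses the resulting proton gradient to make ATP. Complexes I, III, IV and V are built from subunits of both genomes, while complex II and cytochrome c are wholly nuclear. Mitochondrial mRNAs are cut from long transcripts made by a dedicated polymerase, whereas each nuclear subunit has its own promoter. The RPE relies strongly on oxidative phosphorylation and spares glucose for the photoreceptors it serves.

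Libraries held 20607731 to 37189527 counts, with a median of 32437827.5, and depth followed the groups in part. MTZ+ DMSO libraries had 22230490, 22842916 and 23195175 counts at 2dpi, and 20607731, 30716905 and 20950454 counts at 4dpi, while no MTZ- library had fewer than 29608508. Levels below are CPM, counts relative to library size, scaled with TMM factors over all 24 libraries and given in the order replicate 1, 2, 3. The label of the tissue was checked against 9 RPE markers, whose summed level in CPM was 16046 to 31600.3 in MTZ+ DMSO libraries and 69071 to 87366 in MTZ- DMSO libraries at 2dpi. At 4dpi this sum was 80085, 18656 and 45293 CPM in MTZ+ rapamycin and 46133, 25135 and 27866 CPM in MTZ+ DMSO libraries. Markers of other cells were present too. The summed level of 8 photoreceptor markers reached 14362 CPM (MTZ- rapamycin replicate 1 at 2dpi). That of 4 Müller glia markers ranged over 406 to 12485 CPM, most of it from *glula* in every library. The highest sum was in MTZ- DMSO replicate 1 at 4dpi, with 12440 CPM of *glula*. The glia markers *gfap*, *slc1a2b* and *cahz* had only 1.05, 37.2 and 7.03 CPM there. The sum thus gives the level of *glula* and does not by itself show Müller glia. The 4 erythrocyte markers summed to at most 12.3 CPM, and 8 leukocyte markers to at most 117 CPM, in MTZ+ rapamycin replicate 2 at 4dpi. One library stood apart: in MTZ+ rapamycin replicate 3 at 2dpi the nuclear respiratory genes summed to 43042 CPM, against 17841 to 24178 CPM in the other 23 libraries, and its TMM factor of 0.757 was the lowest of the series. In the sample labels, the sequencing names of the MTZ+ 4dpi libraries of replicate 2 carry the letters of the drug groups in the reverse order of replicates 1 and 3. The glial gene *slc1a2b* had 37.5 CPM in the rapamycin and 893 CPM in the DMSO library of replicate 2, the same direction as in replicates 1 and 3. Not all markers kept their direction in replicate 2. The RPE marker *rpe65a* had 17579, 2766 and 8109 CPM in MTZ+ rapamycin and 11475, 5132 and 7225 CPM in MTZ+ DMSO libraries at 4dpi. The epithelial gene *epcam* had 66.9, 185 and 68.6 CPM in the former and 90.4, 144 and 299 CPM in the latter. Counts of calls are also given without the MTZ+ 4dpi libraries of replicate 2 where the counts moved. Of the genes named here 38 of 41 called for ablation in DMSO at 4dpi, 20 of 22 for ablation in rapamycin at 4dpi and 0 of 18 for rapamycin in MTZ+ larvae at 4dpi were still called without them.

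Of all counts, the 13 mitochondrial genes took 2.71 to 11.9% per library and the 113 nuclear genes 1.55 to 3.26%. On the length-scaled TPM scale, the highest mean levels over all libraries were those of the complex IV subunits *mt-co2* (32283 TPM), *mt-co3* (19498 TPM) and *mt-co1* (15088 TPM), followed by *mt-cyb* of complex III (9263 TPM). The most abundant nuclear member was *cox7c*, a small subunit of complex IV, at 2471 TPM. In all, 2 members were too low to test in any comparison: *cycsa* had no count in any library, and *ndufa4l2a* reached at most 5 counts. *cox4i1l* was also too low at 4dpi.

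The mitochondrial share was highest in ablated DMSO-treated eyes, and with rapamycin it stood at 4dpi close to the unablated level. At 4dpi it was 3.92, 4.16 and 4.99% in MTZ+ rapamycin libraries, against 7.86, 10.2 and 11.9% in MTZ+ DMSO libraries. In unablated eyes of the same age it was 3.50, 3.06 and 3.89% with rapamycin, against 2.93, 3.54 and 4.18% with DMSO. The 3 MTZ+ DMSO libraries thus lay above all others of 4dpi. MTZ+ rapamycin libraries lay above every MTZ- rapamycin library and overlapped with MTZ- DMSO libraries. At 2dpi the share was 4.83, 3.53 and 8.43% in MTZ+ rapamycin libraries, against 6.87, 6.83 and 9.25% in MTZ+ DMSO libraries, and it was 3.29, 2.71 and 4.23% in MTZ- rapamycin libraries, against 3.56, 3.33 and 4.37% in MTZ- DMSO libraries. The 2 MTZ+ groups overlapped at 2dpi, and without the library that stood apart MTZ+ rapamycin lay below MTZ+ DMSO. In bulk RNA of sorted cells, fewer cells of a type and less RNA per cell cannot be told apart.

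**Figure D1:**
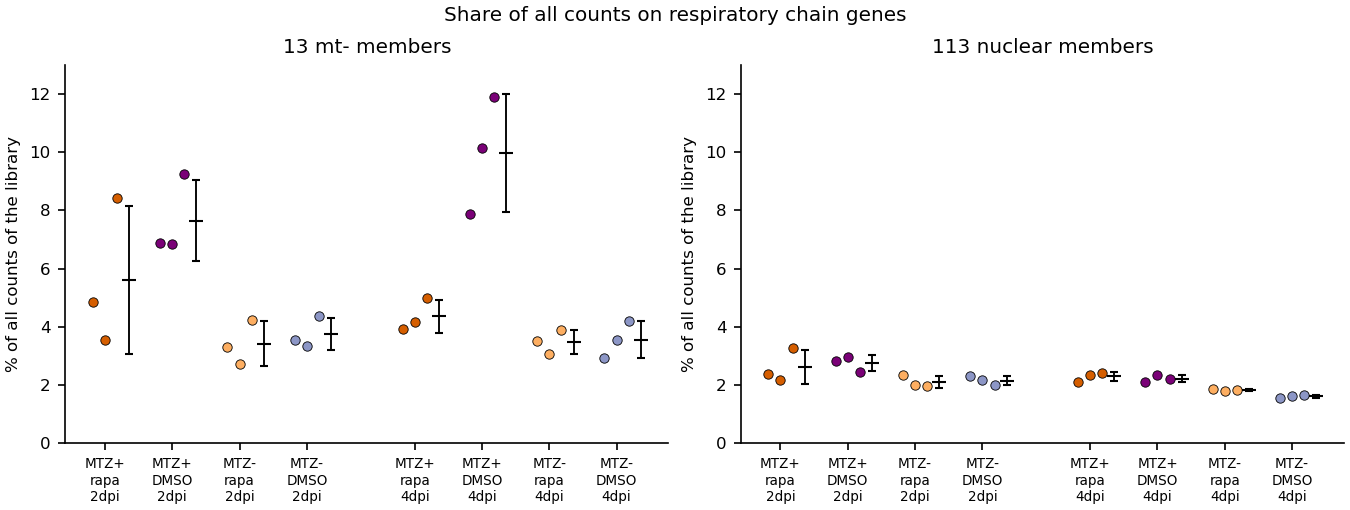
Percent of all counts taken by the 13 mitochondrial genes (left) and the 113 nuclear genes (right) in each library, with points for libraries and bars for the mean ± SD of 3. Mitochondrial shares of MTZ+ DMSO libraries at 4dpi (7.86 to 11.9%) sit above every other group of that age (2.93 to 4.99%), while nuclear shares of all 24 libraries stay between 1.55 and 3.26%.

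The nuclear share moved much less, and its rise with ablation at 4dpi was not seen on the TMM scale. It averaged 2.21 ± 0.130% in MTZ+ DMSO libraries and 1.61 ± 0.0549% in MTZ- DMSO libraries at 4dpi (SD, n = 3 each). After TMM scaling, however, the summed levels of the groups overlapped, at 18691 ± 778 CPM in MTZ+ DMSO and 19394 ± 174 CPM in MTZ- DMSO libraries. The ratio of mitochondrial to nuclear counts is free of such scaling, since both sums come from the same library. It was 1.86, 1.78 and 2.07 in MTZ+ rapamycin libraries, against 3.77, 4.33 and 5.44 in MTZ+ DMSO libraries at 4dpi. MTZ- DMSO libraries of 4dpi had ratios of 1.89, 2.20 and 2.52, so MTZ+ DMSO stood apart from both.

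Ablation in DMSO raised mitochondrial transcripts across all 4 complexes that hold mitochondrial subunits. At 4dpi all 13 genes were higher in MTZ+ than in MTZ- larvae at an adjusted p under 0.05 (quasi-likelihood test of edgeR, Benjamini-Hochberg adjusted over all genes), with a median log2 fold change of 1.23, against 0.27 over all genes. Without both MTZ+ libraries of replicate 2 the 13 were called as well (median 1.24). In that comparison 29.8% of the 17515 genes tested were called in either direction. For each of the 13, every MTZ+ library also lay above every MTZ- library, as did 25.6% of all genes. Because mitochondrial mRNAs are cut from long transcripts, the 13 genes are not independent observations, here or in the comparisons below. The largest difference was that of *mt-atp8*, a small subunit of complex V, with 198, 204 and 219 CPM in MTZ+ DMSO and 40.4, 57.6 and 69.7 CPM in MTZ- DMSO libraries (log2 fold change 1.97, SE 0.21, adjusted p = 0.00028). *mt-nd1*, a membrane subunit of complex I, had 2801, 3798 and 3888 CPM in MTZ+ DMSO and 692, 1169 and 1252 CPM in MTZ- DMSO libraries (1.83, SE 0.24, adjusted p = 0.000597). *mt-cyb*, the cytochrome b of complex III, reached 9008, 10283 and 12624 CPM in MTZ+ DMSO and 3087, 3955 and 5114 CPM in MTZ- DMSO libraries (1.47, SE 0.25). None of these 3 genes had overlapping groups. Marker genes moved in the same comparison. In MTZ+ DMSO libraries 3 of 4 Müller glia markers were called higher and 4 of 9 RPE markers called lower. By mean CPM, every RPE marker except *pmelb* was lower. *slc1a2b*, a glial glutamate transporter, had 488, 893 and 686 CPM in MTZ+ DMSO and 37.2, 23.6 and 31.6 CPM in MTZ- DMSO libraries. The remaining glia marker, *glula*, went the other way, with 9530, 9621 and 6861 CPM in MTZ+ DMSO and 12440, 9837 and 10897 CPM in MTZ- DMSO libraries. Among RPE markers *pmelb* was higher without overlap, with 3038, 2388 and 1904 CPM in MTZ+ DMSO and 959, 1545 and 1412 CPM in MTZ- DMSO libraries. The part of these markers in the result was not tested.

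The smallest rises among the 13 were those of 2 abundant complex IV transcripts. *mt-co2* had 17857, 19283 and 23354 CPM in MTZ+ DMSO and 10987, 12300 and 13834 CPM in MTZ- DMSO libraries at 4dpi (log2 fold change 0.78, SE 0.21, adjusted p = 0.0175), and the value for *mt-co3* was also 0.78. Each of these 2 calls held in 3 of 6 fits that left out a library. Of the summed mitochondrial TPM, complex IV genes held 69.2 ± 1.69% in MTZ+ DMSO and 77.9 ± 2.75% in MTZ- DMSO libraries at 4dpi, and complex V genes 7.15 ± 0.639% in MTZ+ DMSO and 4.31 ± 0.756% in MTZ- DMSO libraries (SD, n = 3 each). The groups did not overlap in either share. At 2dpi the complex IV share was 66.7 ± 1.13% in MTZ+ DMSO and 66.0 ± 2.89% in MTZ- DMSO libraries, a difference smaller than the spread. Reads of *mt-atp8* and *mt-atp6*, of *mt-atp6* and *mt-co3*, and of *mt-nd4l* and *mt-nd4* share overlapping ends, and *mt-nd5* and *mt-nd6* overlap on opposite strands, so their counts are not fully separate.

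At 2dpi the same comparison gave a smaller and less certain picture. All 13 mitochondrial genes had positive log2 fold changes (median 0.79, against 0.04 over all genes), and 4 of them, *mt-nd1*, *mt-nd2*, *mt-nd3* and *mt-atp8*, rose by 1.09 to 1.19, where 25.2% of the 17536 genes tested were called. *mt-nd3*, a membrane subunit of complex I, had 228, 159 and 232 CPM in MTZ+ DMSO and 103, 77.8 and 94.1 CPM in MTZ- DMSO libraries (1.19, SE 0.36, adjusted p = 0.0262). For 11 of the 13 every MTZ+ DMSO library lay above every MTZ- DMSO library, as for 21.7% of all genes. The number called fell to 0 without MTZ+ DMSO replicate 1 or 3 or MTZ- DMSO replicate 2 or 3 and to 1 without MTZ- DMSO replicate 1, and it was 7 with the replicate number as a block. Markers of other cells moved here too: 3 of 4 Müller glia markers were higher and 9 of 9 RPE markers lower in MTZ+ DMSO libraries, *slc1a2b* had 241, 379 and 271 CPM in MTZ+ DMSO and 28.7, 57.0 and 53.5 CPM in MTZ- DMSO libraries, and the epithelial gene *epcam* had 93.9, 53.8 and 102 CPM in MTZ+ DMSO and 0.0590, 0.470 and 0 CPM in MTZ- DMSO libraries. The remaining glia marker, *glula*, overlapped, with 5508, 6081 and 4422 CPM in MTZ+ DMSO and 6050, 5212 and 10236 CPM in MTZ- DMSO libraries. The part of these markers in the result was not tested.

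With rapamycin, ablation moved the mitochondrial genes little at 4dpi. Only *mt-nd1* passed, with 1478, 1529 and 1850 CPM in MTZ+ rapamycin and 902, 915 and 1043 CPM in MTZ- rapamycin libraries (log2 fold change 0.82, SE 0.24, adjusted p = 0.0303, called in 1 of 6 fits that left out a library), where 19.8% of all genes were called. The median over the 13 was 0.22, and 0.03 over all genes. At 2dpi only *mt-nd3* passed (1.15, adjusted p = 0.0407, called in 1 of 6 such fits, 17.5% of all genes called), and the median of 0.64 over the 13 depended on MTZ+ rapamycin replicate 3. Without that library it was 0.04.

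**Figure D2:**
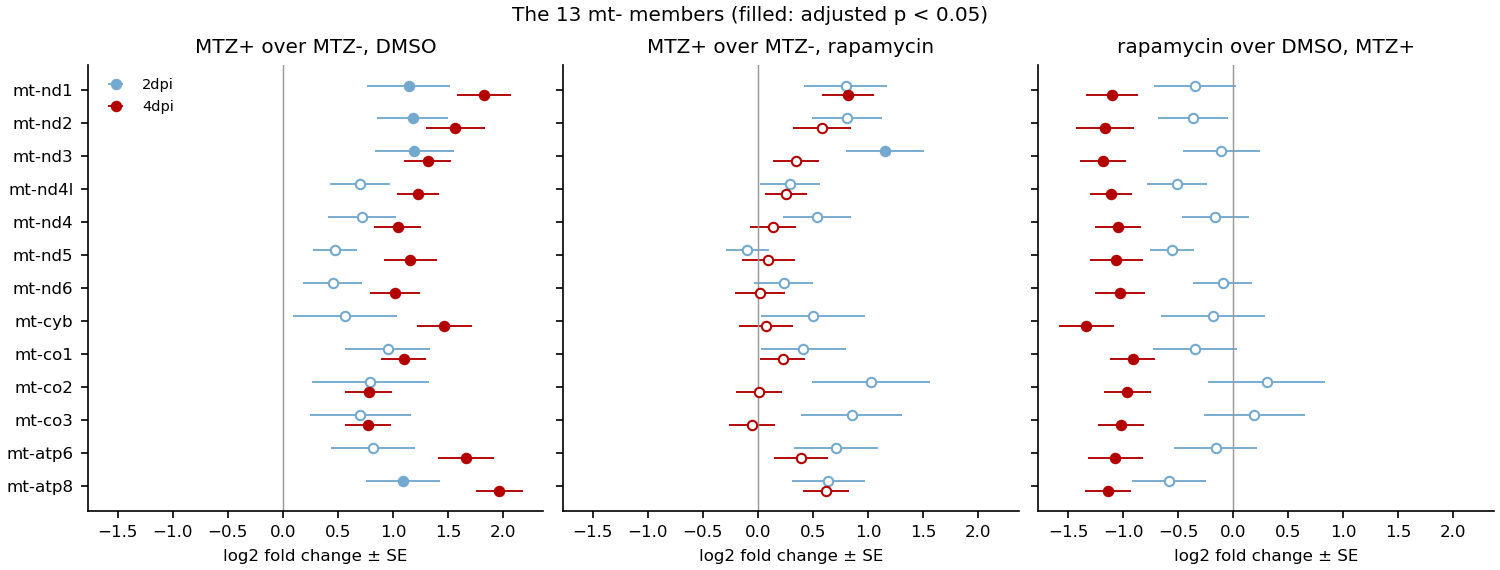
Log2 fold change ± SE of the 13 mitochondrial genes for ablation in DMSO, ablation in rapamycin and rapamycin in MTZ+ larvae, at 2dpi (blue) and 4dpi (red). All 13 red values are above 0 for ablation in DMSO (0.78 to 1.97) and all 13 are below 0 for rapamycin in MTZ+ larvae (-1.33 to -0.91).

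In ablated larvae at 4dpi, rapamycin lowered every mitochondrial gene. All 13 were lower in MTZ+ rapamycin than in MTZ+ DMSO libraries, by 0.91 (*mt-co1*) to 1.33 (*mt-cyb*) on the log2 scale and with a median of -1.07, against -0.02 over all genes. Of all genes, 3.51% were called in this comparison. *mt-nd4l*, another membrane subunit of complex I, had 169, 142 and 189 CPM in MTZ+ rapamycin and 313, 331 and 443 CPM in MTZ+ DMSO libraries (log2 fold change -1.11, SE 0.19, adjusted p = 0.013). *mt-cyb* had 4303, 3271 and 4985 CPM in MTZ+ rapamycin and 9008, 10283 and 12624 CPM in MTZ+ DMSO libraries (-1.33, SE 0.25, adjusted p = 0.0178). *mt-co1*, the catalytic subunit of complex IV, had 12470, 10464 and 13361 CPM in MTZ+ rapamycin and 19851, 21983 and 27170 CPM in MTZ+ DMSO libraries (-0.91, SE 0.20, adjusted p = 0.0346). For all 13 genes the rapamycin libraries lay below the DMSO libraries without overlap, as did 13.1% of all genes.

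These calls stood close to the threshold. Their number fell to 1 without MTZ+ DMSO replicate 2 or 3, to 2 without MTZ+ rapamycin replicate 2 and to 3 without MTZ+ rapamycin replicate 3, and it was 9 without MTZ+ rapamycin replicate 1 and 10 without MTZ+ DMSO replicate 1. *mt-nd4l* was called in 6 of 6 such fits. Without both libraries of MTZ+ 4dpi replicate 2, none was called, while the median log2 fold change was -0.95. Müller glia markers moved the same way. With rapamycin in MTZ+ larvae at 4dpi 3 of 4 were called lower, and each of the 4 was lower without overlap. Their summed level was 406 to 1929 CPM in MTZ+ rapamycin and 7880.1 to 10993 CPM in MTZ+ DMSO libraries. In MTZ- DMSO libraries it was 9875 to 12485 CPM. Most of each of these sums came from *glula*, so they say little of the other glia markers. *slc1a2b* had 47.6, 37.5 and 113 CPM in MTZ+ rapamycin and 488, 893 and 686 CPM in MTZ+ DMSO libraries. Of 4 markers of inner retinal neurons 1 was called lower, *snap25a*. It had 0.733, 0.634 and 0.841 CPM in MTZ+ rapamycin and 8.24, 9.90 and 6.42 CPM in MTZ+ DMSO libraries. *gad1b*, which did not pass, had 0, 0.811 and 0.0247 CPM in MTZ+ rapamycin and 7.61, 6.44 and 4.63 CPM in MTZ+ DMSO libraries. The part of these cells, and of the lower depth of MTZ+ DMSO libraries, in the result was not tested.

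In unablated larvae rapamycin called no mitochondrial gene at either time. The medians were 0.00 at 2dpi and -0.09 at 4dpi, with 0 of 13 at an unadjusted p under 0.05 in edgeR's quasi-likelihood test and 0 by DESeq2, where 0.0855% and 2.61% of all genes were called. In MTZ+ larvae at 2dpi the count was also 0, with 1 at an unadjusted p under 0.05 and 1 by DESeq2, a median of -0.18, or -0.77 without replicate 3 of the rapamycin group, and 0.547% of all genes called. The difference between the rapamycin effects in MTZ+ and MTZ- larvae was tested as an interaction. At 4dpi all 13 values were negative (median -0.99) and each had an unadjusted p under 0.05, but only *mt-atp8* passed after adjustment (-1.35, SE 0.29, adjusted p = 0.0306, called in 3 of 12 fits that left out a library), where 3.47% of all genes were called. With the replicate block 3 passed, *mt-cyb* (adjusted p = 0.0329) and *mt-nd3* (adjusted p = 0.0431) in addition. DESeq2 called 12 of 13 in this interaction, and edgeR called 0 without both MTZ+ 4dpi libraries of replicate 2. No mitochondrial gene was called between 4dpi and 2dpi in MTZ+ DMSO or MTZ- DMSO larvae with edgeR, where 0 and 1 of 13 had an unadjusted p under 0.05 and DESeq2 called 0 and 1.

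The nuclear genes showed no such common shift. Calls went in both directions within complexes I, IV and V in DMSO at 4dpi, and in the other ablation comparisons every lower call was in complex IV. In DMSO at 2dpi 11 of 111 tested were higher and 3 lower in MTZ+ larvae (12.6%, below the 25.2% of all genes), with a median log2 fold change of 0.15. At 4dpi 30 of 110 were higher and 10 lower (36.4%, and 29.8% of all genes), with a median of 0.09. With DESeq2's size factors the 4dpi split was 27 higher and 15 lower. In rapamycin 10 were higher and 0 lower at 2dpi (9.01%, against 17.5% of all genes), or 8 and 2 with DESeq2's size factors, and 24 were higher and 3 lower at 4dpi (24.5%, against 19.8%). Without MTZ+ rapamycin replicate 3 the 2dpi numbers were 7 higher and 11 lower and the median was -0.12 instead of 0.31, so the direction of the nuclear genes in that comparison rested on that library.

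**Figure D3:**
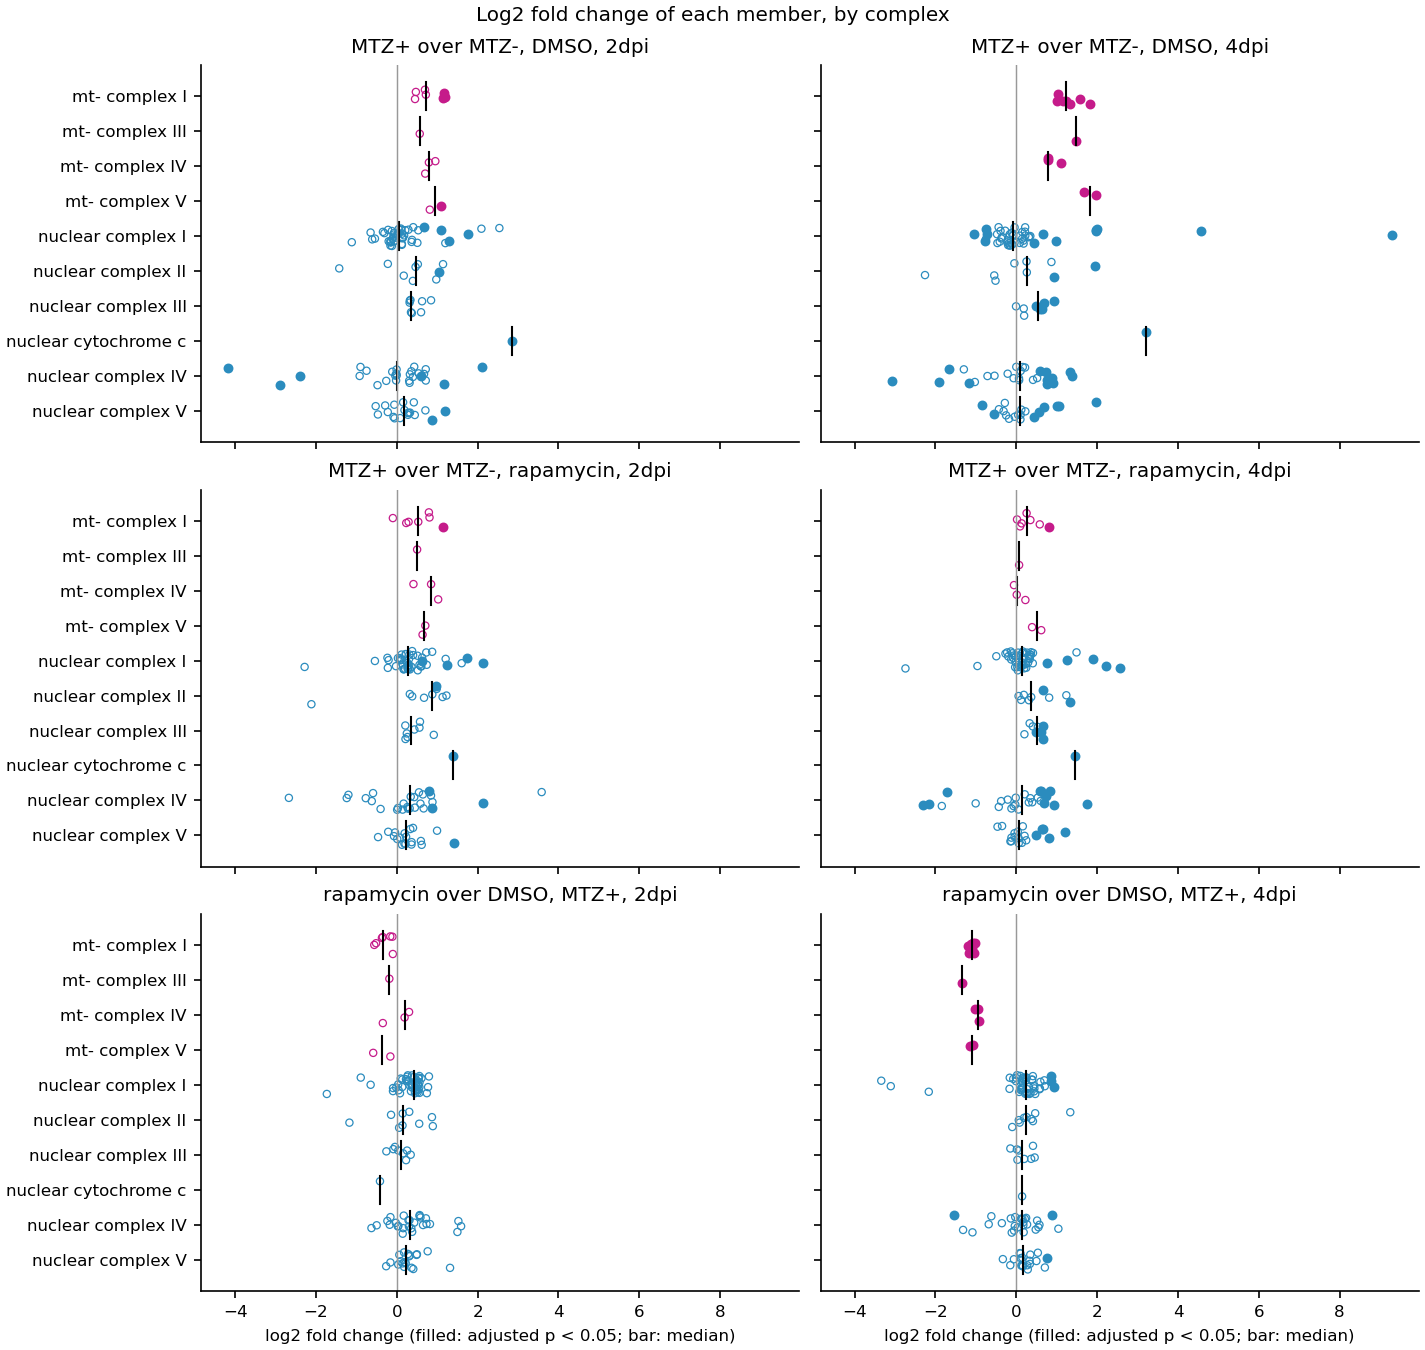
Log2 fold change of every tested member in 6 comparisons, grouped by complex and genome, with filled points for an adjusted p under 0.05 and bars for medians. The mitochondrial groups move together, while nuclear complexes I, IV and V spread to both sides of 0. The highest nuclear point, *ndufa4* at 4dpi, is a fitted value against a group with at most 1 count per library and is no measure of size.

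The largest rise of a called nuclear member in DMSO at 2dpi was that of cytochrome c. Its gene *cycsb* (chromosome 6, 10910589 to 10912424, GRCz11) encodes the mobile carrier between complexes III and IV, which also triggers apoptosis when released into the cytosol. At 2dpi it had 642, 870 and 690 CPM in MTZ+ DMSO and 119, 115 and 74.9 CPM in MTZ- DMSO libraries (log2 fold change 2.85, SE 0.28, adjusted p = 2.82e-05). At 4dpi it had 235, 438 and 404 CPM in MTZ+ DMSO and 36.2, 33.2 and 53.7 CPM in MTZ- DMSO libraries (3.20, SE 0.28, adjusted p = 0.000142). The groups were far apart at both times.

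Rapamycin raised *cycsb* in unablated larvae at 4dpi, and no difference was detected in ablated ones (log2 fold change 0.14). In unablated larvae at 2dpi the groups did not overlap either, but the difference was not called. Levels there were 217, 225 and 191 CPM in MTZ- rapamycin and 119, 115 and 74.9 CPM in MTZ- DMSO libraries. At 4dpi MTZ- rapamycin libraries had 154, 135 and 159 CPM, against 36.2, 33.2 and 53.7 CPM in MTZ- DMSO libraries (1.89, SE 0.26, adjusted p = 0.00545), and MTZ+ rapamycin libraries had 316, 417 and 449 CPM, which overlapped with those of MTZ+ DMSO. The rise with ablation in rapamycin was 1.39 (SE 0.26) at 2dpi and 1.45 (SE 0.26) at 4dpi. The interaction at 4dpi was -1.75 (SE 0.36, adjusted p = 0.0266), and it was called in 5 of 12 fits that left out a library.

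**Figure D4:**
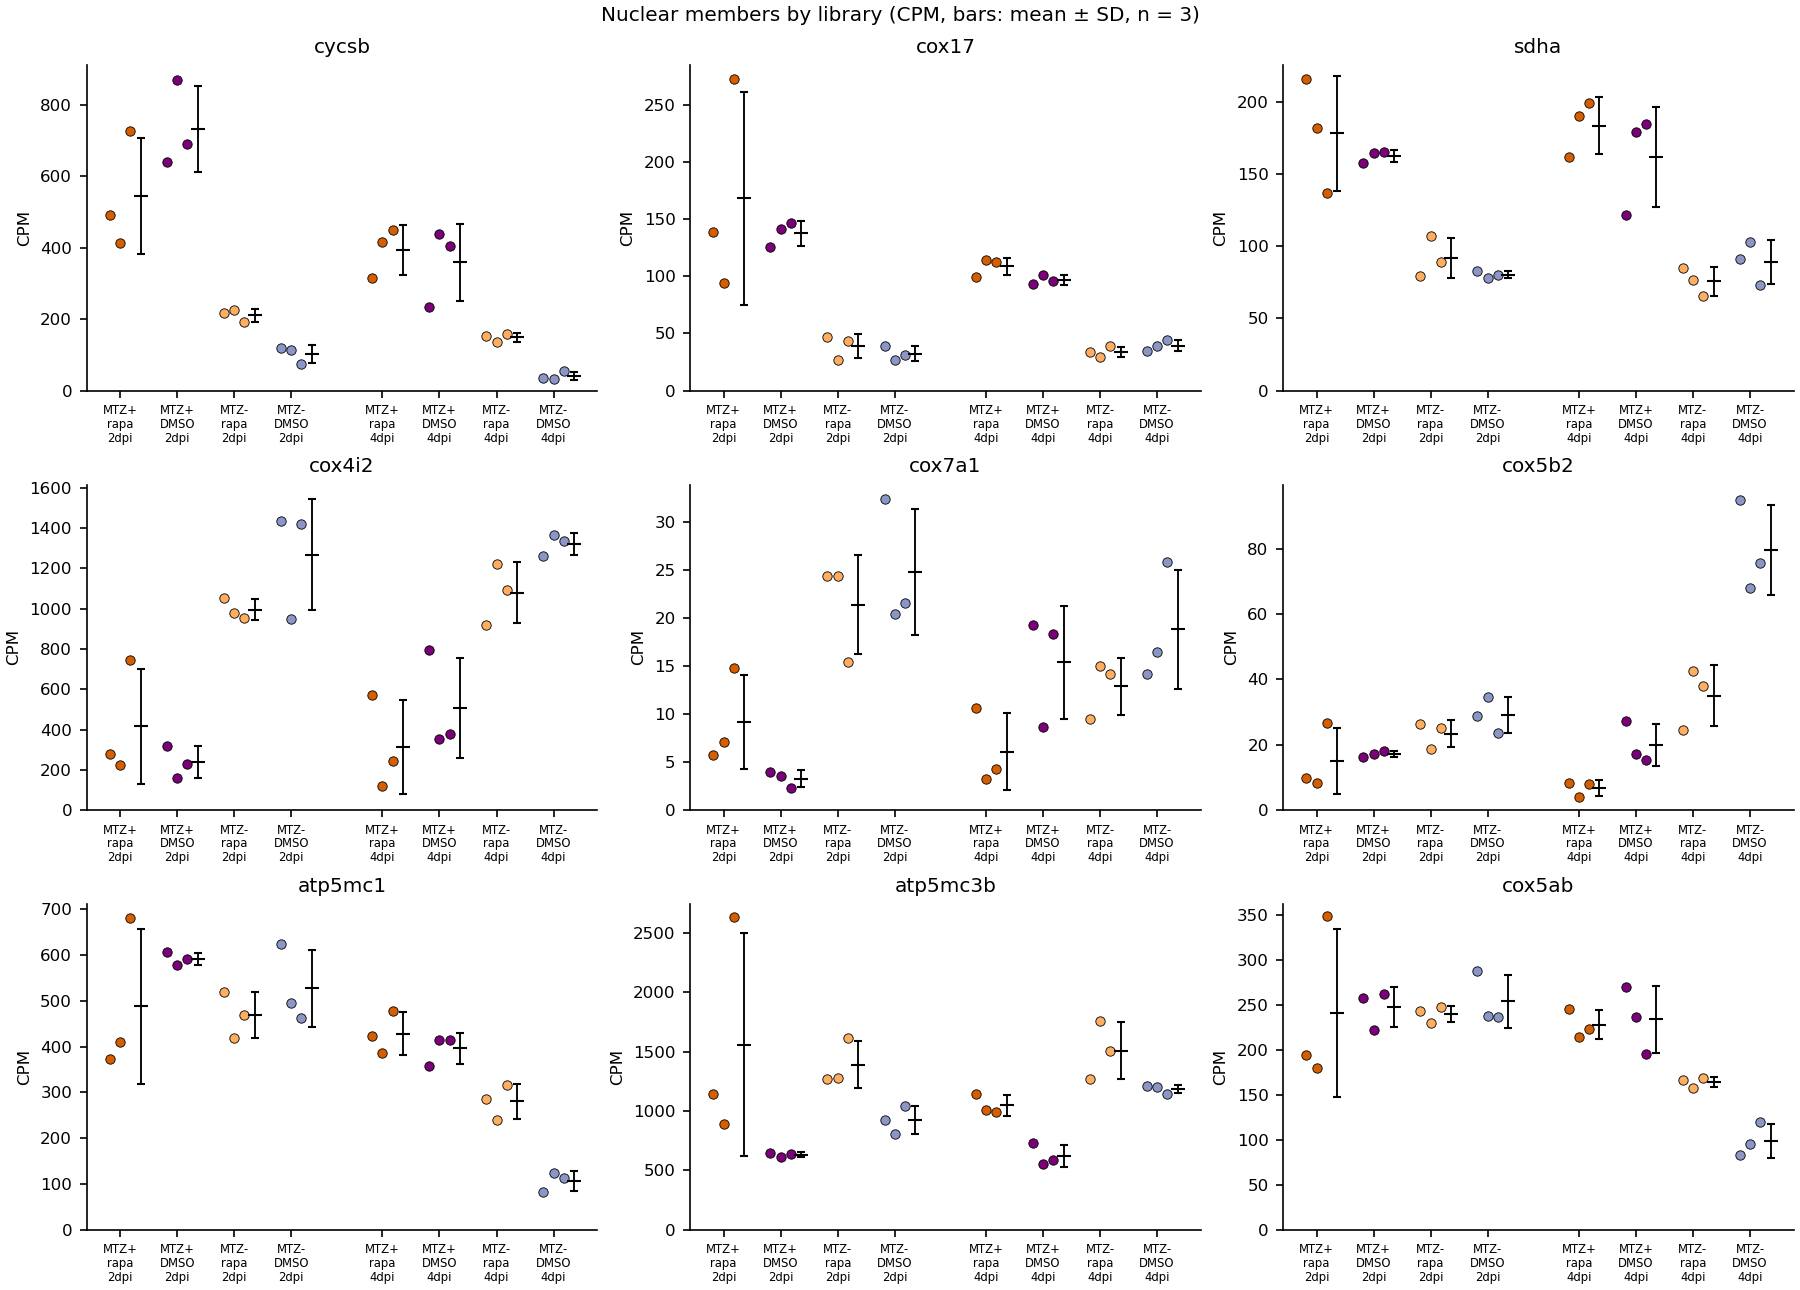
Level in CPM of 9 nuclear genes in each library, by group at 2dpi and 4dpi. *cycsb*, *cox17* and *sdha* are higher in MTZ+ libraries (*cycsb* 235 to 870 CPM, against 33.2 to 225 CPM in MTZ- libraries), and *cox4i2* is lower (121 to 796 CPM in MTZ+ libraries, against 921 to 1434 CPM in MTZ- libraries).

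In complex I, apart from the *ndufa4* genes, the largest rises in DMSO were those of assembly factors. The assembly factor *ndufaf4* had 15.7, 21.8 and 14.4 CPM in MTZ+ DMSO and 4.87, 5.33 and 5.21 CPM in MTZ- DMSO libraries at 2dpi (log2 fold change 1.77, SE 0.36, adjusted p = 0.00293), and it rose by 1.96 to 2.23 in the other 3 ablation comparisons. *ndufaf2* rose in all 4 as well, by 1.30 to 1.99 (in DMSO at 2dpi the call held in 1 of 6 fits that left out a library), and *ndufaf7* in both at 4dpi (1.96 in DMSO and 2.56 in rapamycin). Other assembly factors went the opposite way in DMSO at 4dpi: *ndufaf1* fell by 0.76, *ndufaf3* by 0.73 and *ndufaf5* by 1.06, calls that held in 6, 3 and 2 of 6 such fits. These 3 were not called in rapamycin.

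Among structural subunits of complex I, *ndufab1a*, the mitochondrial acyl carrier protein, rose in all 4 ablation comparisons. It had 141, 150 and 150 CPM in MTZ+ DMSO and 74.4, 67.1 and 94.0 CPM in MTZ- DMSO libraries at 4dpi (0.98, SE 0.18, adjusted p = 0.00242). *ndufv1*, the subunit that takes electrons from NADH, rose by 0.62 to 0.76 in 3 of the 4. The complex had 4 members higher and 0 lower in DMSO at 2dpi, 8 higher and 4 lower in DMSO at 4dpi, and 4 and 5 higher with 0 lower in rapamycin at 2dpi and 4dpi. In the same order 25.2, 29.8, 17.5 and 19.8% of all genes were called, each above the share of the 48 genes of this complex.

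The gene *ndufa4* (chromosome 12, 9880493 to 9884326) had 12.1, 15.2 and 26.1 CPM in MTZ+ DMSO and 0.0421, 0.0365 and 0 CPM (1, 1 and 0 counts) in MTZ- DMSO libraries at 4dpi. In unablated DMSO larvae it was almost silent at 4dpi but had 12, 91 and 17 counts at 2dpi. At 4dpi the ratio of the summed counts (1520 in MTZ+ and 2 in MTZ- DMSO libraries) per effective library size was 692 (95% exact binomial interval 191 to 5715, counting error only). MTZ- rapamycin libraries had 1.96, 1.16 and 1.19 CPM, a ratio of 57.2 over MTZ- DMSO libraries (interval 15.5 to 477). The related gene *ndufa4l2b* was also low, with 2.07, 4.87 and 5.13 CPM in MTZ+ DMSO and 0.0421, 0 and 0.477 CPM in MTZ- DMSO libraries.

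In complex II, *sdha*, the flavoprotein that oxidises succinate, was higher after ablation in every comparison. It had 122, 179 and 185 CPM in MTZ+ DMSO and 91.0, 103 and 73.2 CPM in MTZ- DMSO libraries at 4dpi (log2 fold change 0.94, SE 0.21, adjusted p = 0.00642). At 2dpi it rose by 1.04 in DMSO and 0.98 in rapamycin. In rapamycin at 4dpi it had 162, 190 and 199 CPM in MTZ+ and 85.2, 76.4 and 65.5 CPM in MTZ- libraries (1.33, SE 0.21, adjusted p = 0.00195). The assembly factor *sdhaf3* rose in DMSO at 4dpi (1.94) and the membrane anchor *sdhdb* in rapamycin at 4dpi (0.65). No member of complex II was called lower in an ablation comparison.

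Complex III had calls only at 4dpi, all of them higher after ablation and small. In DMSO at 2dpi all 8 subunits had positive log2 fold changes (median 0.36) and none passed, and in rapamycin at 2dpi none passed either. There *uqcrq*, a small subunit, had 143, 117 and 354 CPM in MTZ+ rapamycin and 157, 148 and 157 CPM in MTZ- rapamycin libraries, so that only the library that stood apart was higher. At 4dpi 5 rose in DMSO (median of the complex 0.54) and 4 in rapamycin (median 0.52), with none called lower, and *uqcrq* had a log2 fold change of -0.01 in DMSO. Of all genes, 29.8% were called in DMSO and 19.8% in rapamycin at that time. *uqcrc1*, a core protein, had 224, 255 and 260 CPM in MTZ+ DMSO and 179, 156 and 153 CPM in MTZ- DMSO libraries (0.68, SE 0.15, adjusted p = 0.00662). *uqcrfs1*, the Rieske iron-sulfur protein, rose by 0.49 in DMSO and 0.62 in rapamycin at 4dpi, and *uqcr10*, another small subunit, by 0.94 and 0.65, the second called in 1 of 6 fits that left out a library.

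Complex IV was divided between rising and falling members. *cox17*, a copper chaperone for the complex, had 126, 141 and 146 CPM in MTZ+ DMSO and 39.2, 26.4 and 31.0 CPM in MTZ- DMSO libraries at 2dpi (log2 fold change 2.12, SE 0.36, adjusted p = 0.000876). In rapamycin at 4dpi it had 99.6, 114 and 112 CPM in MTZ+ and 33.5, 29.3 and 38.6 CPM in MTZ- libraries (1.74, SE 0.16, adjusted p = 0.00034), and it rose in the remaining ablation comparisons by 2.13 and 1.38. MTZ+ and MTZ- libraries did not overlap in any of them. *cox15* and *cox10*, which make the haem of the complex, rose in DMSO at 4dpi by 0.77 and 0.91.

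In DMSO at 2dpi, 3 members fell after ablation, all subunits of complex IV that exist in several forms, and *cox4i2* had the highest CPM of them. *cox4i2* (chromosome 23, 18944388 to 18951148), in mammals an oxygen-regulated form of subunit 4, had 320, 160 and 231 CPM in MTZ+ DMSO and 1434, 949 and 1419 CPM in MTZ- DMSO libraries at 2dpi (-2.39, SE 0.42, adjusted p = 0.00126). In rapamycin at 4dpi it had 571, 121 and 243 CPM in MTZ+ and 921, 1224 and 1093 CPM in MTZ- libraries (-1.72, SE 0.49, adjusted p = 0.0293). That call was lost without MTZ+ rapamycin replicate 2 or 3 or MTZ- rapamycin replicate 2 or 3, with log2 fold changes of -2.52 to -1.32 and an adjusted p of up to 0.108 over the 6 fits that left out a library. The remaining comparisons gave -1.30 in DMSO at 4dpi (adjusted p = 0.0619, or 0.0343 with the replicate block) and -1.24 in rapamycin at 2dpi (adjusted p = 0.0539, or 0.0197 with the block), and in all 4 every MTZ+ library lay below every MTZ- library.

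The other form, *cox4i1*, differed little, with 260, 227 and 293 CPM in MTZ+ DMSO and 199, 195 and 244 CPM in MTZ- DMSO libraries at 2dpi. Of the summed TPM of both forms and *cox4i1l*, *cox4i2* took 39.4 ± 7.14% in MTZ+ DMSO and 81.1 ± 3.00% in MTZ- DMSO libraries at 2dpi, and 59.2 ± 10.9% in MTZ+ DMSO and 80.4 ± 0.418% in MTZ- DMSO libraries at 4dpi (SD, n = 3 each). With rapamycin it was 46.9 ± 1.90% in MTZ+ and 72.3 ± 4.07% in MTZ- libraries at 2dpi, and 42.3 ± 17.7% in MTZ+ and 73.8 ± 0.164% in MTZ- libraries at 4dpi. MTZ+ and MTZ- groups did not overlap in this share at any of these comparisons. Some RPE markers were called lower in MTZ+ libraries in the same comparisons, 9 of 9 in DMSO at 2dpi, 4 of 9 in DMSO at 4dpi, and 2 and 1 of 9 in rapamycin at 2dpi and 4dpi. The RPE marker *pmelb* went the other way in DMSO at 4dpi, with 3038, 2388 and 1904 CPM in MTZ+ and 959, 1545 and 1412 CPM in MTZ- libraries. In rapamycin at 4dpi its groups overlapped. By mean CPM every other RPE marker was lower in MTZ+ than in MTZ- libraries in each of these comparisons. The part of the RPE markers in the fall of *cox4i2* was not tested.

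**Figure D5:**
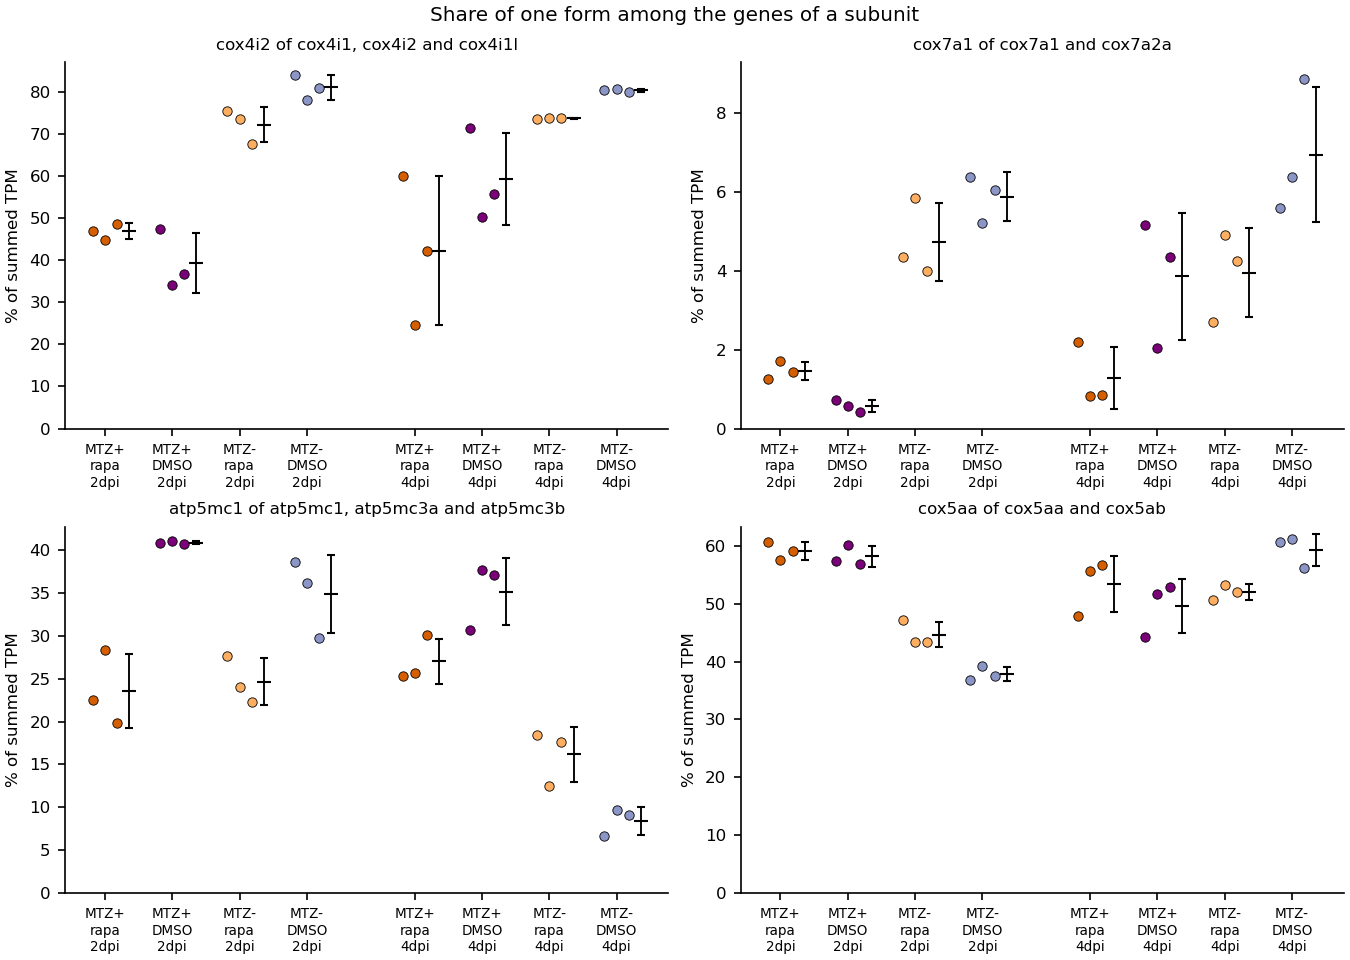
Share of the summed TPM of each set of alternative subunits taken by *cox4i2*, *cox7a1*, *atp5mc1* and *cox5aa*, per library and group. The *cox4i2* share is lower in MTZ+ than in MTZ- groups throughout, and the *atp5mc1* share at 4dpi is 8.44 ± 1.63% in MTZ- DMSO libraries, the lowest of the 8 groups.

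A pair of lower-level subunits fell with *cox4i2* at 2dpi. *cox7a1*, named after the heart and muscle form in mammals, had 4.02, 3.55 and 2.28 CPM in MTZ+ DMSO and 32.4, 20.5 and 21.6 CPM in MTZ- DMSO libraries (-2.89, SE 0.41, adjusted p = 0.000304). At 4dpi its level was 19.3, 8.64 and 18.4 CPM in MTZ+ DMSO and 14.1, 16.5 and 25.9 CPM in MTZ- DMSO libraries, which overlapped. The gene listed as *cox6a2* fell in DMSO by 4.17 at 2dpi and by 3.07 at 4dpi (called in 3 of 6 fits that left out a library), with 2.39, 0 and 1.84 CPM in MTZ+ DMSO and 35.6, 24.8 and 16.7 CPM in MTZ- DMSO libraries at 2dpi.

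*cox5b2* and *cox6b1* passed at 4dpi but not at 2dpi, and the change of their ablation effect between the times was not called (adjusted p = 0.202 and 0.217). At 2dpi *cox5b2* had 16.1, 17.1 and 18.1 CPM in MTZ+ DMSO and 28.9, 34.7 and 23.7 CPM in MTZ- DMSO libraries, already without overlap (-0.75, adjusted p = 0.181). At 4dpi it had 27.3, 17.3 and 15.2 CPM in MTZ+ DMSO and 95.0, 68.1 and 75.6 CPM in MTZ- DMSO libraries (-1.92, SE 0.34, adjusted p = 0.00228), and *cox6b1* fell by 1.67 in DMSO and by 2.16 in rapamycin. *cox5b2* also fell with rapamycin in MTZ+ larvae, to 8.38, 3.95 and 7.99 CPM in MTZ+ rapamycin, against 27.3, 17.3 and 15.2 CPM in MTZ+ DMSO libraries (-1.54, SE 0.34, adjusted p = 0.0317, called in 1 of 6 fits that left out a library). By level *cox6b1* is a minor form, while no partner of *cox5b2* was among the members. Of the summed TPM of *cox6b1* and *cox6b2*, *cox6b1* took 1.42 ± 0.735% in MTZ+ DMSO and 4.54 ± 0.453% in MTZ- DMSO libraries at 4dpi.

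Several forms with higher levels rose after ablation. *cox5aa* rose in all 4 comparisons, with 358, 345 and 357 CPM in MTZ+ DMSO and 172, 158 and 146 CPM in MTZ- DMSO libraries at 2dpi (1.18, SE 0.25, adjusted p = 0.00416). Its partner *cox5ab* had a log2 fold change of -0.01 at 2dpi and rose at 4dpi, with 270, 236 and 196 CPM in MTZ+ DMSO and 82.8, 94.8 and 120 CPM in MTZ- DMSO libraries (1.32, SE 0.19, adjusted p = 0.000807). The difference between the 2 times was itself called (1.28, SE 0.30, adjusted p = 0.0266), in 4 of 12 fits that left out a library and with an adjusted p of up to 0.0802. *cox6a1* and *cox7a2a* rose at 4dpi in both drug groups, by 0.88 and 0.72 in DMSO and by 0.74 and 0.58 in rapamycin.

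In complex V the 3 genes for the c-ring, the rotor through which protons pass, went different ways. *atp5mc1* (chromosome 3, 23599290 to 23604396) did not pass at 2dpi, with 605, 578 and 590 CPM in MTZ+ DMSO and 623, 495 and 463 CPM in MTZ- DMSO libraries (log2 fold change 0.19). At 4dpi it had 358, 415 and 415 CPM in MTZ+ DMSO and 81.6, 123 and 112 CPM in MTZ- DMSO libraries (1.98, SE 0.20, adjusted p = 0.000211). Within the unablated DMSO group, *atp5mc1* was lower at 4dpi than at 2dpi (-2.32, SE 0.23, adjusted p = 4.64e-06).

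Rapamycin raised *atp5mc1* in unablated larvae at 4dpi, to 286, 240 and 316 CPM in MTZ- rapamycin, against 81.6, 123 and 112 CPM in MTZ- DMSO libraries (1.44, SE 0.19, adjusted p = 0.00428). The ablation effect at 4dpi was 0.66 in rapamycin, and the interaction was -1.32 (SE 0.27, adjusted p = 0.0252, called in 5 of 12 fits that left out a library). *atp5mc3b*, the most abundant of the 3 in every group except MTZ+ DMSO at 2dpi by mean TPM share, fell after ablation at 4dpi in DMSO, with 726, 553 and 588 CPM in MTZ+ DMSO and 1210, 1198 and 1142 CPM in MTZ- DMSO libraries (-0.85, SE 0.18, adjusted p = 0.00522). It rose with rapamycin in MTZ+ larvae at that time, to 1145, 1006 and 988 CPM in MTZ+ rapamycin libraries (0.76, adjusted p = 0.0405). Without both MTZ+ libraries of replicate 2 this value was 0.72 and was not called (adjusted p = 0.194). As a share of c-ring TPM, *atp5mc1* took 35.2 ± 3.91% in MTZ+ DMSO and 8.44 ± 1.63% in MTZ- DMSO libraries at 4dpi, and *atp5mc3b* took 49.0 ± 5.65% in MTZ+ DMSO and 84.4 ± 2.34% in MTZ- DMSO libraries. In MTZ+ rapamycin libraries the *atp5mc3b* share at 4dpi was 58.8 ± 3.05%, which overlapped with MTZ+ DMSO. At 2dpi it was 61.7 ± 6.72% in MTZ+ rapamycin and 38.9 ± 0.220% in MTZ+ DMSO libraries, without overlap.

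Of the 2 inhibitors that block ATP synthase from running in reverse, *atp5if1a* rose in all 4 ablation comparisons, with 130, 118 and 115 CPM in MTZ+ DMSO and 62.0, 52.9 and 46.0 CPM in MTZ- DMSO libraries at 2dpi (1.20, SE 0.28, adjusted p = 0.00778). Its value in DMSO at 4dpi, 0.55, had an adjusted p of 0.0483, or 0.0628 with the replicate block, and 0.34 without both MTZ+ libraries of replicate 2 (adjusted p = 0.205). *atp5if1b* fell by 0.56 in DMSO at 4dpi. Complex V had 2 members higher and 0 lower in DMSO at 2dpi, 6 higher and 2 lower in DMSO at 4dpi, and in rapamycin 1 and 5 higher with 0 lower at 2dpi and 4dpi. In the same order 25.2, 29.8, 17.5 and 19.8% of all genes were called, so at 2dpi the 19 genes of this complex lay below that share.

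Rapamycin itself changed few nuclear members, a share near that of all genes. In ablated larvae at 4dpi 5 of 110 rose and 1 fell (5.45%, and 3.51% of all genes), with a median of 0.18. The 5 were *ndufab1a* (0.86), *ndufaf1* (0.85), *ndufs8a* (0.93), *cox16* (0.89) and *atp5mc3b* (0.76), and the 1 was *cox5b2*. *cox16*, an assembly factor of complex IV, had 37.8, 37.9 and 42.6 CPM in MTZ+ rapamycin and 23.8, 23.1 and 17.4 CPM in MTZ+ DMSO libraries (SE 0.19, adjusted p = 0.027). *ndufs8a*, an iron-sulfur subunit of complex I, had 119, 122 and 136 CPM in MTZ+ rapamycin and 52.8, 80.7 and 65.4 CPM in MTZ+ DMSO libraries. The groups did not overlap for either gene. The total of 6 fell to 0 without MTZ+ DMSO replicate 3 or MTZ+ rapamycin replicate 3, to 1 without replicate 2 of either group, to 3 without MTZ+ DMSO replicate 1, and to 0 without both libraries of replicate 2.

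In MTZ- larvae at 4dpi 3 nuclear members rose and 0 fell (2.73%, and 2.61% of all genes), *cycsb*, *atp5mc1* and *ndufa4*, and the number was 6 without MTZ- DMSO replicate 3. At 2dpi rapamycin called 0 nuclear members in MTZ+ larvae (11 at an unadjusted p under 0.05, 2 by DESeq2) and 0 in MTZ- larvae (4 at an unadjusted p under 0.05, 1 by DESeq2), against 0.547% and 0.0855% of all genes by edgeR's quasi-likelihood test. The median in MTZ+ larvae at 2dpi was 0.31 with replicate 3 of the rapamycin group and -0.16 without it. The interaction at 2dpi called 0 (2 at an unadjusted p under 0.05, 1 by DESeq2, and 0.0228% of all genes called by edgeR).

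Between the 2 times, whose libraries carry different dates in their sequencing names, so that time and date cannot be told apart, more nuclear members were called in unablated than in ablated larvae, a difference in number that was not tested. In MTZ- DMSO larvae 3 nuclear members were higher and 7 lower at 4dpi than at 2dpi (9.01%, and 9.23% of all genes), among them *atp5mc1*, *cox5ab* (-1.36), *cycsb* (-1.33) and *uqcrc1* (-0.75). In MTZ+ DMSO larvae 1 was higher, *cox7a1* (2.23, SE 0.46, adjusted p = 0.033), and 1 was lower, *cox16* (SE 0.21, adjusted p = 0.033), with 39.3, 44.7 and 44.6 CPM at 2dpi and 23.8, 23.1 and 17.4 CPM at 4dpi, where 0.602% of all genes were called. The *cox7a1* call held in 1 and the *cox16* call in 2 of 6 fits that left out a library. The change of the ablation effect between the times was tested directly and called 5 nuclear members, 4 with a higher effect at 4dpi (*atp5mc1*, *cox5ab*, *cox7a1* and *ndufa4*) and 1 with a lower one (*ndufaf5*), where 2.72% of all genes were called.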

How the data were processed

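RNA of 24 pooled libraries (SMART-Seq HT cDNA, Nextera XT libraries) was mapped by the authors to GRCz11 in CLC Genomics Workbench, and its version and its treatment of strand and of reads that map to several places are not given in the sources used here. The deposited tables, 1 per time point, hold whole-number counts per gene and TPM values made by the authors, and both were used. RPKM and CPM columns and the authors' own comparison columns (group means, fold changes, p-values, FDR and Bonferroni values) were not used. All per-library columns were matched to a sample, with 0 left unmapped.

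Counts were tested in R 4.3.3 with edgeR 4.0.16 (limma 3.58.1): TMM scaling, filterByExpr with a minimum count of 10, a robust quasi-likelihood fit over the 12 libraries of a time point (24 for contrasts between times) and Benjamini-Hochberg adjustment over all genes tested, called under 0.05. An added filter, used in choosing genes to name, was an absolute log2 fold change over 1 and at least 1 TPM in the higher of the group means. Alternatives were DESeq2 1.42.0, DESeq2's size factors, scaling without mitochondrial genes, no filter on low counts, only the 6 libraries compared, the replicate number as a block, and leaving out each library in turn. Leaving out both MTZ+ 4dpi libraries of replicate 2 was chosen after seeing the data. Tables and figures were made with Python 3.11.15, pandas 2.3.3 and matplotlib 3.10.9. The fits were tested on simulated data. Ratios against a group with 1 to 3 counts carry an exact binomial interval, which covers counting error only. Replicates were separate pools, and p-values measure the spread between pools.

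Libraries of a time point with the same replicate number share a date in the labels' sequencing names, and what it dates is not given in the sources used here. Their deviations from group means correlated by 0.154 on average at 2dpi and 0.0644 at 4dpi, against -0.0773 and -0.0323 for different numbers (18 same-number pairs each). Named genes were all mitochondrial members, per complex the most abundant nuclear member and the strongest calls in each direction, members passing the added filter, alternative forms of subunits and members called in an interaction. Exceptions to that rule, *cox15*, *cox10*, *ndufs8a* and *ndufv1*, were named after their values were seen where they fell outside it. *uqcrq*, *ndufa4l* and *ndufa4l2b* were also named outside the rule. Members and gene lists were chosen with earlier results of these data known.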

Additional observations from a re-analysis of the deposited data

Results flagged for a closer look

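For 9 values the effect of a treatment differed between times or between ablated and unablated larvae by a test of that difference (quasi-likelihood test of edgeR, Benjamini-Hochberg adjusted over all genes). The effect of ablation in DMSO was larger at 4dpi than at 2dpi for *cox7a1* (difference in log2 fold change 2.63, adjusted p = 0.0284), *atp5mc1* (1.74, adjusted p = 0.00623) and *cox5ab* (1.28, adjusted p = 0.0266). For *cox7a1* this means that a fall at 2dpi was not seen at 4dpi. It was lower at 4dpi for *ndufaf5*, an assembly factor of complex I (-1.65, adjusted p = 0.0493), with 25.1, 12.7 and 14.1 CPM in MTZ+ DMSO and 47.0, 41.5 and 26.0 CPM in MTZ- DMSO libraries at 4dpi. The fitted difference of 6.69 for *ndufa4* depends on a group at or under the floor of 3 counts and gives no size. At 4dpi the effect of rapamycin was lower in MTZ+ than in MTZ- larvae for *cycsb* (-1.75, adjusted p = 0.0266), *mt-atp8* (-1.35, adjusted p = 0.0306) and *atp5mc1* (-1.32, adjusted p = 0.0252), and the fitted value of -7.79 for *ndufa4* has the same limit. Of these 9, *atp5mc1* between the times and *ndufa4* in the interaction were called in every fit that left out a library.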

How the results depend on the processing

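No call of a gene named by the rule changed sign, and 312 alternative values of these genes kept their direction but missed the threshold. Calls of other members were not checked for sign. The nuclear median for ablation in rapamycin at 2dpi did change sign without MTZ+ rapamycin replicate 3, as given above. Counts moved by more than 1.5 times as follows. With DESeq2, nuclear members called were 19 (ablation in rapamycin at 2dpi), 2 (rapamycin in MTZ+ at 2dpi), 1 (rapamycin in MTZ- at 2dpi), 1 (interaction at 2dpi), 16 (rapamycin in MTZ+ at 4dpi), 16 (rapamycin in MTZ- at 4dpi), 8 (interaction at 4dpi), 9 and 17 (4dpi against 2dpi in MTZ+ DMSO and in MTZ- DMSO), and mitochondrial members called were 1 (rapamycin in MTZ+ at 2dpi), 2 (ablation in rapamycin at 4dpi), 12 (interaction at 4dpi) and 1 (4dpi against 2dpi in MTZ- DMSO). With DESeq2's size factors the interaction at 4dpi called 2 mitochondrial members. With only the 6 libraries compared, nuclear calls were 22 for ablation in DMSO at 2dpi and 0 for rapamycin in MTZ+ at 4dpi, and mitochondrial calls were 7, 0 and 2 for ablation in DMSO at 2dpi, ablation in rapamycin at 2dpi and rapamycin in MTZ+ at 4dpi. With the replicate block, mitochondrial calls were 7 (ablation in DMSO at 2dpi), 2 (ablation in rapamycin at 2dpi) and 3 (interaction at 4dpi), and other counts stayed within 1.5 times. Single genes that crossed the threshold with the block, beside those named in the report, were *mt-co1*, *mt-nd4*, *mt-nd4l*, *cox7a2l*, *ndufaf7*, *cox6a2*, *mt-nd2* and *ndufaf1*. Without both MTZ+ 4dpi libraries of replicate 2, nuclear calls were 0 (rapamycin in MTZ+), 1 (interaction) and 3 (ablation in DMSO, 4dpi against 2dpi), and mitochondrial calls were 0 in the rapamycin, ablation in rapamycin and interaction comparisons. The cause of these changes was not tested, except that fewer libraries entered some fits.

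Leaving out each library in turn, nuclear calls ranged over 10 to 12, 24 to 40, 6 to 18 and 14 to 29 for ablation in DMSO at 2dpi and 4dpi and in rapamycin at 2dpi and 4dpi, 0 to 5 and 2 to 6 for rapamycin at 4dpi in MTZ+ and MTZ-, 1 to 4 for the interaction at 4dpi, 0 to 2 and 6 to 10 for 4dpi against 2dpi in MTZ+ DMSO and MTZ- DMSO, and 1 to 5 for ablation in DMSO between the times. Mitochondrial calls ranged over 0 to 5, 11 to 13, 0 to 2 and 0 to 1 for the same 4 ablation comparisons, 1 to 10 for rapamycin in MTZ+ at 4dpi and 0 to 3 for the interaction at 4dpi. For ablation in DMSO at 4dpi the lowest nuclear counts were 24 without MTZ+ DMSO replicate 2 and 26 without MTZ- DMSO replicate 1, and for ablation in rapamycin at 4dpi they were 14 without MTZ+ rapamycin replicate 3 and 16, 17 and 17 without MTZ- rapamycin replicate 2, 1 and 3.

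As percent of TPM instead of counts, the mitochondrial share was 9.77, 13.5, 6.54 and 7.23% in MTZ+ rapamycin, MTZ+ DMSO, MTZ- rapamycin and MTZ- DMSO libraries at 2dpi, and 7.87, 17.3, 6.76 and 7.06% at 4dpi. Without the most counted mitochondrial gene it was 3.87, 5.58, 2.49 and 2.84% in the same 4 groups at 2dpi, and 3.07, 7.24, 2.51 and 2.53% at 4dpi. The log2 ratio of mitochondrial to nuclear counts without that gene was 0.53, 1.02, 0.24 and 0.40 at 2dpi and 0.42, 1.70, 0.46 and 0.63 at 4dpi, and as a difference of mean log2 CPM it was 3.77, 4.30, 3.53 and 3.65 at 2dpi and 3.64, 4.87, 3.58 and 3.70 at 4dpi. Depth limits *ndufa4*, *cox6a2* and *ndufa4l2b*, which had few counts in at least 1 group.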

Other observations

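Genes of the respiratory chain that the symbols did not match, mostly assembly factors, were also followed after ablation. Of 26 found of 27 listed, 11 rose and 0 fell in DMSO at 2dpi (median log2 fold change 0.97), 10 rose and 4 fell in DMSO at 4dpi (0.65), 12 rose and 0 fell in rapamycin at 2dpi (1.02), and 11 rose and 0 fell in rapamycin at 4dpi (0.91). The haem-bearing subunit of complex III, *cyc1*, rose by 1.03 to 1.19 in the 4 comparisons, and *bcs1l*, which inserts the Rieske protein, by 2.31 to 4.29. The share of all genes called was 25.2, 29.8, 17.5 and 19.8% in the same order.

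Of 20 genes found of 23 listed for mitochondrial biogenesis and expression of mitochondrial DNA, 9 rose after ablation in DMSO at 2dpi, 6 in DMSO at 4dpi, 11 in rapamycin at 2dpi and 10 in rapamycin at 4dpi, and 0 fell in each. In the same order, 25.2, 29.8, 17.5 and 19.8% of all genes were called, so the count in DMSO at 4dpi was near the share of all genes. *tfb2m*, a transcription factor of the mitochondrial genome, rose by 1.11 to 2.55. *ssbp1*, which binds single-stranded mitochondrial DNA, rose by 1.93 to 2.49. *slirp*, which stabilises mitochondrial mRNAs, rose by 1.65 to 2.21. In MTZ+ larvae at 4dpi rapamycin raised 1 of the 20, *lrpprc* (1.34), the partner of *slirp*, and lowered 0, where 3.51% of all genes were called. Genes of the TCA cycle were mixed: of 14, 2 rose and 1 fell in DMSO at 2dpi, 3 rose and 4 fell in DMSO at 4dpi, 1 rose and 2 fell in rapamycin at 2dpi, and 4 rose and 0 fell in rapamycin at 4dpi. The shares of all genes called in these ablation comparisons were again 25.2, 29.8, 17.5 and 19.8%. These lists were chosen with earlier results of these data known.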
